A study of Homo sapiens with 12 samples.

Results

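BCYRN1 and RN7SK are short noncoding RNAs made by RNA polymerase III, and they were followed here on every probe set whose only gene symbol is one of the 2 names. Of 1411399 probe sets on the array, 357604 carry 1 symbol, and 7 of these are members: 4 named BCYRN1 and 3 named RN7SK. No probe set with several symbols names either RNA. The arrays measured RNA from the cytoplasm of the human osteosarcoma line U2OS. The cells stably carry K294A, an inactive form of the capping enzyme whose expression doxycycline induces. The 12 arrays form 4 groups of 3: induced cells (doxycycline at 1 ug/ml for 24 h) with RNA treated in vitro with the exonuclease Xrn1, induced cells with untreated RNA, uninduced cells with Xrn1-treated RNA, and uninduced cells with untreated RNA. All groups carry the K294A construct, all RNA came from a cytoplasmic extract, and all of it passed a kit that removes ribosomal RNA. Sample titles match by number, CM1 with CM1X up to CM6 with CM6X, where X marks the Xrn1-treated RNA. The main fit and the permutation tests did not use these pairs. The labels call the replicates biological but do not say whether they are separate cultures or whether the line is a single clone, so p-values measure only the spread between these samples.

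Xrn1 degrades RNA from a 5' end that carries a single phosphate, and a cap or a triphosphate blocks it. BCYRN1, also called BC200, keeps the triphosphate of its polymerase III transcript. It is known from neurons and many tumour cells as a cytoplasmic RNA that dampens translation, and its 5' part is related to Alu repeats. RN7SK, also called 7SK, is a mainly nuclear RNA whose 5' phosphate is methylated by MEPCE, and it holds the elongation factor P-TEFb in an inactive particle. Both genes have many related copies or pseudogenes in the human genome. The comparison asked how the level of each probe set differed between Xrn1-treated and untreated RNA and whether that difference depended on rescaling of the arrays. RMA normalises the arrays to each other, so every change below is relative to the other RNAs measured. In bulk RNA, fewer expressing cells and less RNA per cell cannot be told apart.

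The 7 probe sets do not all lie where their gene name points. Probe set identifiers on this array run along the genome: for 98.5% of 355397 probe sets with a known gene, that gene lies on the commonest chromosome of the 5 genes on each side by identifier (gene positions from RefSeq, assembly GRCh38.p14). BCYRN1 lies on chromosome 2, and of its 4 probe sets only 2480960 has its 40 nearest named neighbours there, listed between those of TTC7A and EPCAM. The BCYRN1 probe set 2411560 has all 40 neighbours on chromosome 1. For 3343135, 37 of 40 neighbours are on chromosome 11, and for 3695911 all 40 are on chromosome 16. RN7SK lies on chromosome 6, and of its 3 probe sets only 2910446 has its 40 neighbours there, between TMEM14A and GCLC. The RN7SK probe set 3432314 has 40 of 40 neighbours on chromosome 12, and 3548102 has 38 of 40 on chromosome 14. Thus 2 members sit beside genes of their own chromosome and 5 elsewhere, and the values of those 5 can come from other copies as well as from the named gene. Probe sequences were not used here.

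All 7 probe sets were bright. Values are log2 RMA values. The mean over 12 arrays was 7.08 for 2411560, 7.06 for 2480960, 10.32 for 3343135 and 7.66 for 3695911 of BCYRN1, each higher than at least 98.7% of all probe sets. For RN7SK it was 8.64 for 2910446 and 11.80 for 3432314, and 3548102 was the brightest of the 7. All 7 passed the filter on dim probe sets, a mean above 2.04, in every group and not through a single high group. RN7SK, taken as the mean of its 3 probe sets, was exceeded by 1 of 18763 genes, the polymerase III RNA RN7SL1, and BCYRN1, as the mean of 4, by 40. Levels of different probe sets were not compared further, because the sensitivity of each probe set is unknown.

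The probe set of BCYRN1 on chromosome 2, 2480960, was higher in Xrn1-treated RNA in both induction states. It had values of 8.08, 7.76 and 7.85 in induced Xrn1 samples, against 5.72, 6.46 and 7.19 in induced untreated samples. Its values were 7.22, 7.83 and 7.09 in uninduced Xrn1 samples, against 6.84, 5.89 and 6.80 in uninduced untreated samples. Every Xrn1 sample lay above every untreated sample of the same induction state. Averaged over both states the change was 1.15 ± 0.35 (SE), with a limma adjusted p of 0.0175 over 705699 probe sets. In an exact two-sided permutation test within induction states, 2 of 400 rearrangements were as extreme, p = 0.005, the smallest that this unpaired test allows. Groups that are apart in the same direction in both states always give this p, so it only restates the separation. Of all 705699 probe sets, 6.01% were apart in both states with higher and 5.67% with lower values.

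**Figure D1:**
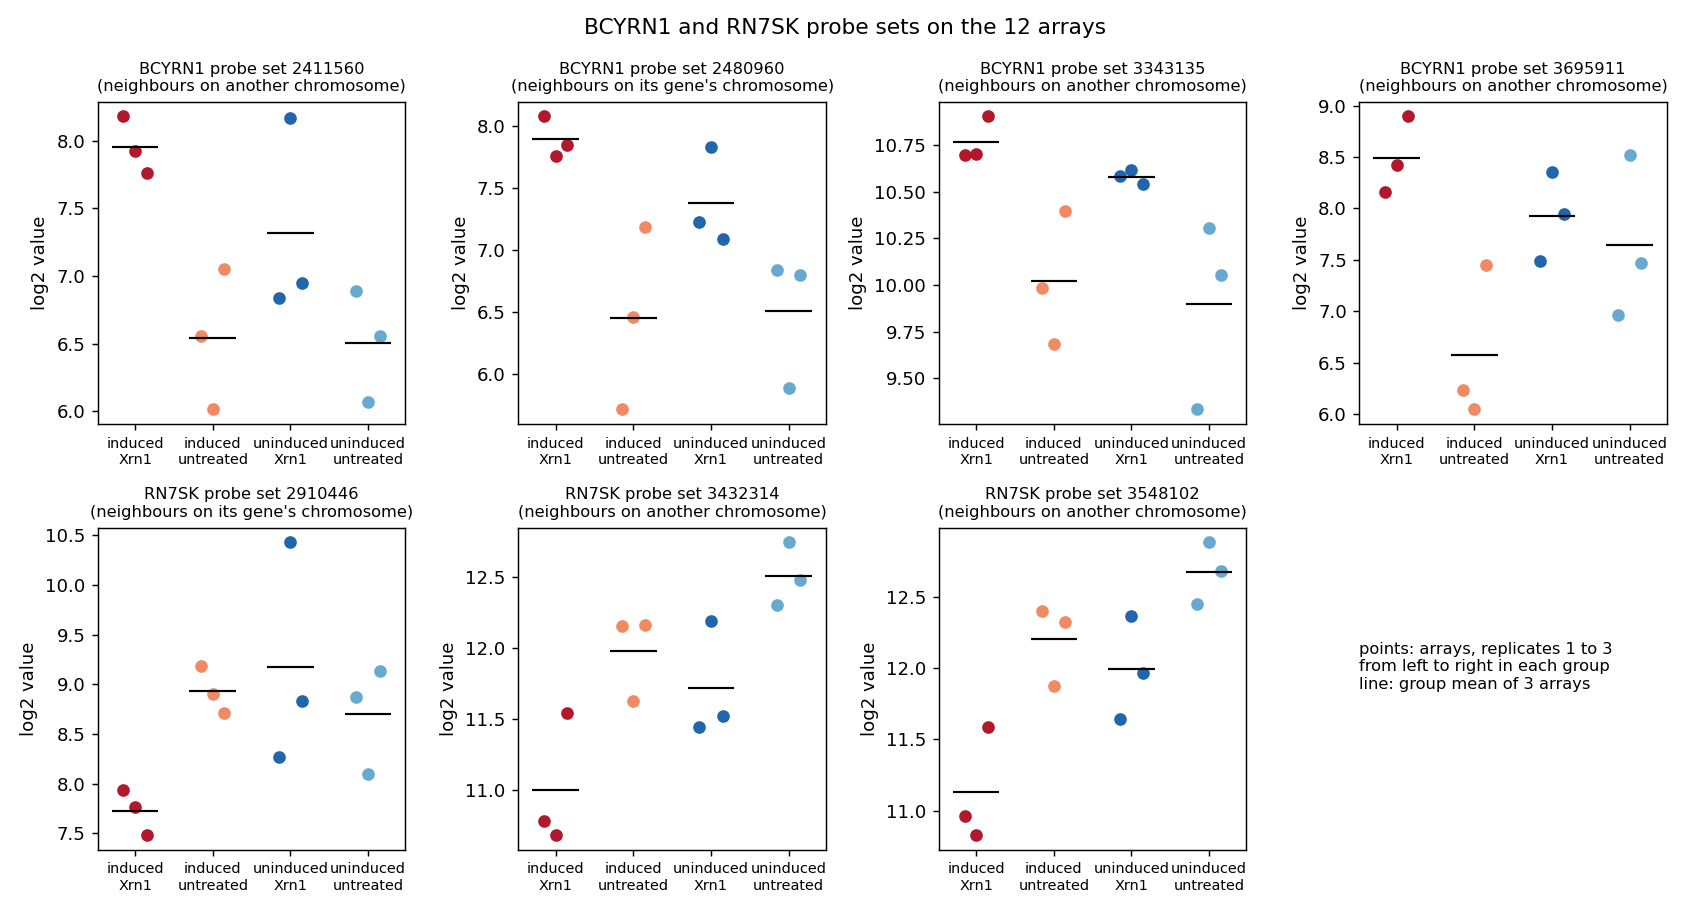
Log2 values (y axis, own range in each panel) of the 4 BCYRN1 and 3 RN7SK probe sets on the 12 arrays, with the 4 groups on the x axis, points for arrays and a line for the mean of 3. All BCYRN1 panels have their highest group mean in induced Xrn1 samples, and the 3 RN7SK panels have their lowest there.

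The other 3 BCYRN1 probe sets were also higher on average with Xrn1. Probe set 2411560 had 8.18, 7.93 and 7.76 in induced Xrn1 samples, against 6.56, 6.01 and 7.05 in induced untreated samples. In uninduced cells it had 6.84, 8.17 and 6.95 in Xrn1 samples, against 6.89, 6.07 and 6.56 in untreated samples. The groups were apart in induced cells and overlapped in uninduced cells, where Xrn1 replicate 2 stood alone at 8.17. The average change was 1.11 ± 0.35 (SE; limma adjusted p = 0.0219; exact permutation p = 0.01). This call ended without induced Xrn1 replicate 1, induced untreated replicate 2 or uninduced Xrn1 replicate 2 (changes of 1.06, 0.98 and 0.90).

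Probe set 3343135, the brightest of BCYRN1, had the smallest averaged change of the 4. It had 10.70, 10.70 and 10.90 in induced Xrn1 samples, against 9.98, 9.68 and 10.40 in induced untreated samples. The uninduced cells gave 10.58, 10.62 and 10.54 with Xrn1, against 9.33, 10.31 and 10.05 without. The groups did not overlap in either state. Its average change of 0.71 ± 0.33 (SE) did not pass across all probe sets (limma adjusted p = 0.122). The exact permutation p was 0.005, again the smallest possible in the unpaired test, and it follows from the lack of overlap.

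Probe set 3695911 was higher with Xrn1 in induced cells. It had 8.16, 8.42 and 8.89 in induced Xrn1 samples, against 6.23, 6.05 and 7.45 in induced untreated samples. In uninduced cells it had 7.49, 8.35 and 7.95 with Xrn1, against 6.96, 8.52 and 7.47 without. The induced groups were apart and the uninduced groups overlapped. Its change was 1.92 ± 0.52 (SE; limma adjusted p = 0.0185) in induced cells and 0.28 ± 0.52 (adjusted p = 0.758) in uninduced cells. The induced call ended without induced Xrn1 replicate 2 (1.95) or 3 (1.71) or induced untreated replicate 1 (1.74) or 2 (1.65), with adjusted p values between 0.0536 and 0.103. The uninduced change ranged from -0.06, without untreated replicate 1, to 0.72, without untreated replicate 2. The difference between these, 1.63 ± 0.74, did not pass (adjusted p = 0.23). Averaged, it rose by 1.10 (adjusted p = 0.0319; exact permutation p = 0.045), a call that ended when any of 8 of the 12 arrays was left out, with changes between 0.93 and 1.12.

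RN7SK was lower with Xrn1 on its 2 brightest probe sets. Probe set 3548102 had 10.97, 10.83 and 11.59 in induced Xrn1 samples, against 12.40, 11.88 and 12.33 in induced untreated samples. The uninduced samples gave 11.64, 12.37 and 11.97 with Xrn1, against 12.45, 12.88 and 12.68 without. All Xrn1 samples lay below all untreated samples of their state. The average change of -0.88 ± 0.33 (SE) missed the threshold across all probe sets (limma adjusted p = 0.0547). Its exact permutation p of 0.005 follows from that separation.

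Probe set 3432314 followed the same course. It had 10.78, 10.68 and 11.54 in induced Xrn1 samples, against 12.16, 11.62 and 12.16 in induced untreated samples. In uninduced cells it had 11.44, 12.19 and 11.52 with Xrn1, against 12.30, 12.74 and 12.48 without. Here too the groups were apart in both states. The average change was -0.88 ± 0.33 (SE; limma adjusted p = 0.056; exact permutation p = 0.005, which follows from the groups being apart). Over the 12 arrays these 2 probe sets correlated at 0.989 with each other, and at 0.51 and 0.56 with the remaining RN7SK probe set, on arrays that all 3 share.

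That remaining probe set, 2910446 on chromosome 6, was lower with Xrn1 in the induced samples and mixed in the uninduced samples. It had 7.94, 7.77 and 7.48 in induced Xrn1 samples, against 9.18, 8.90 and 8.71 in induced untreated samples, and these did not overlap. In uninduced cells it had 8.27, 10.43 and 8.83 with Xrn1, against 8.88, 8.09 and 9.13 without, and Xrn1 replicate 2 at 10.43 was the highest of all 12. The changes were -1.20 ± 0.53 (SE; limma adjusted p = 0.131) in induced cells and 0.47 ± 0.53 (adjusted p = 0.58) in uninduced cells. Without that replicate the uninduced change was -0.15. The average of -0.36 had an exact permutation p of 0.465. The difference between the states, -1.68 ± 0.75, did not pass (adjusted p = 0.225). Without uninduced Xrn1 replicate 2 the average was -0.68 and the difference -1.05.

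Across the members, 3 of 7 probe sets passed for the averaged Xrn1 change, all of them higher and all BCYRN1. This tally depended on the setting. Probe set 3695911 did not pass with centring on the median kept probe set (limma adjusted p = 0.0599), centring on very bright probe sets (0.0876) or its own spread (0.075), and 3343135 passed with its own spread (0.0333). The RN7SK probe sets 3432314 and 3548102 both passed as lower in those 3 settings and with centring on the 75th percentile, quantile normalisation and cyclic loess on probe sets, with adjusted p values between 0.0132 and 0.0434. Of all 705699 probe sets tested, 23.1% passed in that comparison and 11.7% were higher, so a probe set that passes is not unusual here. In induced cells 1 of 7 passed (background 12.4%). In uninduced cells 0 of 7 passed in limma, 0 had an unadjusted p under 0.05, and the background was 18.4%. The interaction of Xrn1 and induction passed for 0 of 7 in limma, with 2 at an unadjusted p under 0.05 and a background of 0.00907%. By overlap alone, all 4 BCYRN1 probe sets were higher in induced Xrn1 samples, where 22.1% of probe sets were, and all 3 RN7SK probe sets were lower, where 11.1% were. In uninduced cells 2 of 4 BCYRN1 probe sets were higher (background 17.2%) and 2 of 3 RN7SK probe sets were lower (background 15.5%). These are the same probe sets that were apart in both states, which 6.01% of probe sets were with higher and 5.67% with lower values. Probe sets of a gene share sequence and arrays, so they are not independent replicates.

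**Figure D2:**
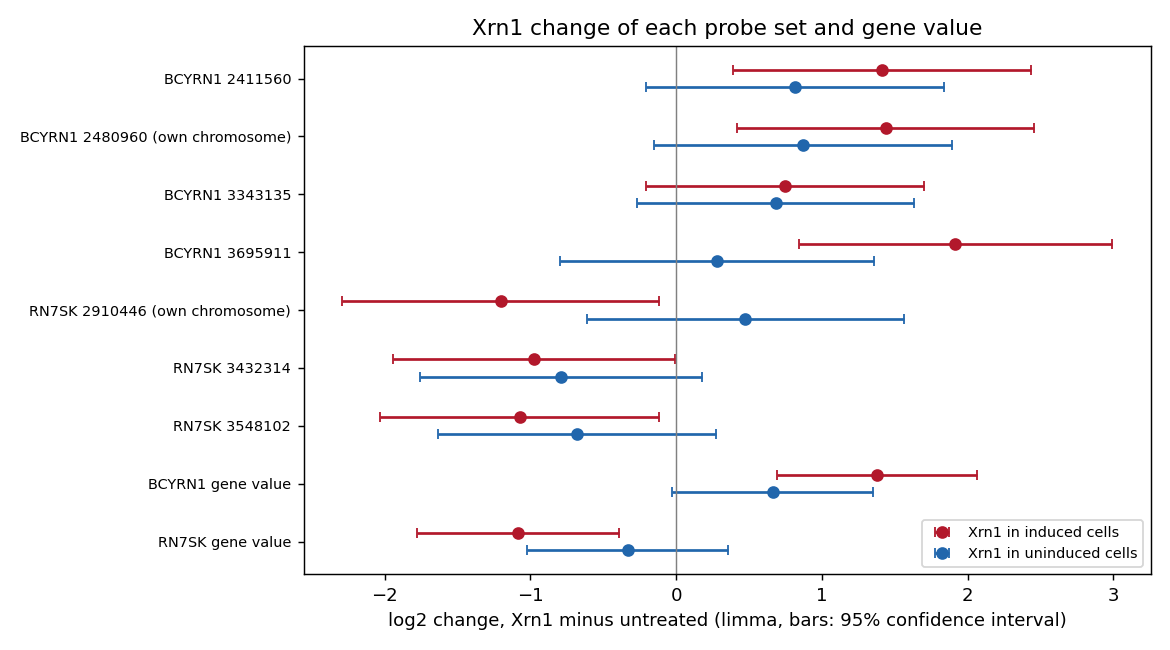
Log2 change, Xrn1 minus untreated (x axis), with the 95% confidence interval from limma, in induced (red) and uninduced (blue) cells for each probe set and for both gene values. In induced cells all BCYRN1 changes are above 0 and all RN7SK changes below 0, while in uninduced cells 6 of the 7 probe sets keep those sides and 2910446 does not, at 0.47, or -0.15 without uninduced Xrn1 replicate 2.

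Taken as gene values, BCYRN1 rose and RN7SK fell with Xrn1 in induced cells. The BCYRN1 value was 8.78 ± 0.08 (SD, n = 3) in induced Xrn1 samples and 7.40 ± 0.54 in induced untreated samples, a change of 1.38 with a 95% confidence interval from 0.69 to 2.07 (limma adjusted p = 0.00185), or 2.60-fold. The RN7SK value was 9.95 ± 0.23 in induced Xrn1 samples and 11.04 ± 0.22 in induced untreated samples, a change of -1.08 with an interval from -1.78 to -0.39 (limma adjusted p = 0.0126), or 2.12-fold lower. Of 18763 genes, 35.7% passed in this comparison, 20.4% higher and 15.2% lower. The BCYRN1 call held without each array in turn. The RN7SK call ended without induced Xrn1 replicate 1 (-1.06, adjusted p = 0.0511) or replicate 2 (-0.99, adjusted p = 0.0726), with the spread of RN7SK alone in place of a shared prior (adjusted p = 0.0566), and with the median of its probe sets (-0.98, adjusted p = 0.0568). Cyclic loess on gene values turned it to 0.70 (adjusted p = 0.0613).

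In uninduced cells neither gene value passed. BCYRN1 was 8.30 ± 0.38 (SD, n = 3) in Xrn1 samples and 7.64 ± 0.12 in untreated samples, and the 2 groups did not overlap. The change was 0.66, with an interval from -0.03 to 1.35 (limma adjusted p = 0.128), and it passed with centring on the median gene (0.96) or the 75th percentile (0.79), quantile normalisation (0.90), cyclic loess on gene values (2.65) and array weights (0.51). RN7SK was 10.96 ± 0.63 in Xrn1 samples and 11.29 ± 0.12 in untreated samples, a change of -0.33 with an interval from -1.02 to 0.36 (limma adjusted p = 0.491). Cyclic loess on gene values turned this to 2.09 (adjusted p = 2.36e-05), and with array weights it passed as lower (-0.55). Uninduced Xrn1 replicate 2 was the highest of all 12 samples for RN7SK, at 11.66, and without it the change was -0.68. Without uninduced Xrn1 replicate 1 it was -0.08. Of all genes, 34.9% passed in this comparison, 6.96% higher and 28.0% lower. Higher genes were 19.9% of those that passed, and 46.4% with centring on the median gene, which moved the median change of all genes to 0.08, against -0.22 as deposited.

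Averaged over both states, BCYRN1 rose by 1.02 ± 0.24 (SE; limma adjusted p = 0.000469) and RN7SK changed by -0.71 ± 0.25 (SE; adjusted p = 0.017). The exact permutation p values were 0.005 and 0.02, and the first follows from the BCYRN1 groups being apart in both states. Of all genes, 39.6% passed, 13.1% higher and 26.5% lower, and the median gene changed by 0.09. Higher genes were 33.1% of those that passed, and 49.7% with centring on the median gene. The RN7SK call ended without induced Xrn1 replicate 2 (-0.66), uninduced Xrn1 replicate 1 (-0.58) or uninduced Xrn1 replicate 3 (-0.66). With its chromosome 6 probe set alone, the change was -0.36 (adjusted p = 0.262), against 1.15 (limma, passed) for BCYRN1 with its chromosome 2 probe set alone.

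The distance between both RNAs on the same array does not depend on how an array is centred. This comparison was chosen after the values were seen. BCYRN1 minus RN7SK was -1.12, -1.06 and -1.35 in induced Xrn1 samples, against -4.13, -3.75 and -3.05 in induced untreated samples. It was -2.42, -2.92 and -2.64 in uninduced Xrn1 samples, against -3.70, -3.55 and -3.71 in uninduced untreated samples. The groups were apart in both states, and the untreated means of -3.64 and -3.65 in induced and uninduced cells were nearly equal. The gap narrowed by 2.46 with Xrn1 in induced cells (5.52-fold) and by 0.99 in uninduced cells (1.99-fold). The averaged narrowing was 1.73. The difference between the 2 states was not tested. With the chromosome 2 and chromosome 6 probe sets alone, the gap narrowed by 2.64 in induced cells and by 0.40 in uninduced cells, where the groups overlapped.

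**Figure D3:**
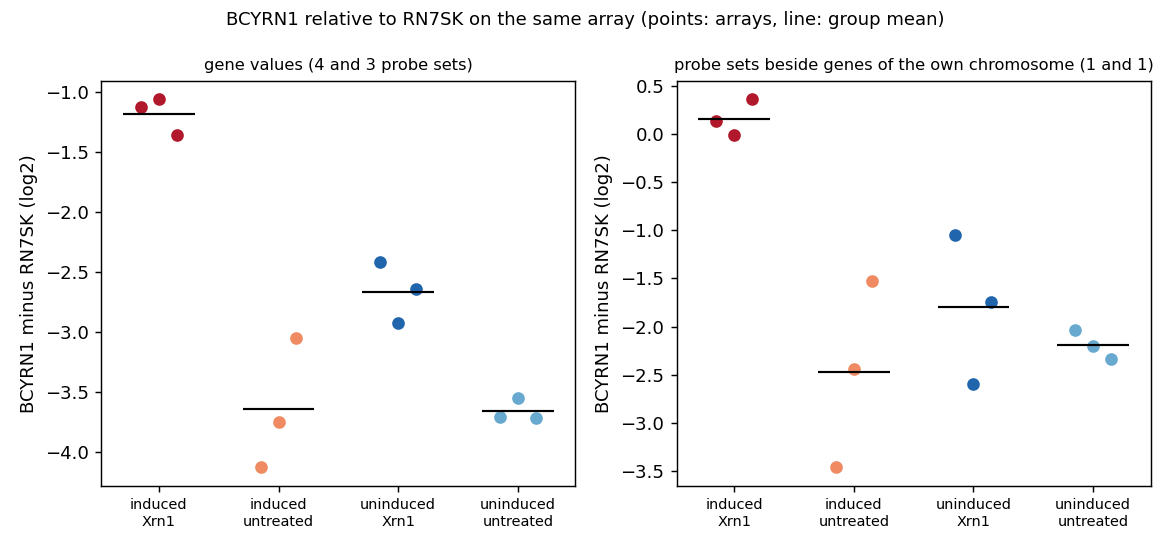
BCYRN1 minus RN7SK on the log2 scale (y axis) on each of the 12 arrays by group (x axis), from gene values on the left and from the probe sets beside genes of the own chromosome on the right, with a line for the mean of 3 arrays. The induced Xrn1 samples are highest in both panels, at means of -1.18 and 0.16.

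Rescaling of the arrays left both directions in place except in 1 setting. Over 7 rescalings, namely 5 kinds of centring, quantile normalisation and cyclic loess on probe sets, the averaged change of the BCYRN1 gene value lay between 0.85 and 1.18 and that of RN7SK between -0.88 and -0.62, and all passed. Cyclic loess applied to gene values instead gave 2.65 for BCYRN1 and turned RN7SK to 1.40 (limma adjusted p = 2.15e-05). The 5 centrings cannot alter the distance between BCYRN1 and RN7SK, because each shifts all genes of an array alike. With quantile normalisation and both kinds of cyclic loess, BCYRN1 stayed above RN7SK in its Xrn1 change, also where both were positive. For the single probe sets, cyclic loess on probe sets gave averaged changes of 1.11, 1.15, 0.61 and 1.07 for BCYRN1 and of -0.42, -1.04 and -1.04 for RN7SK, and the last 2 then passed.

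**Figure D4:**
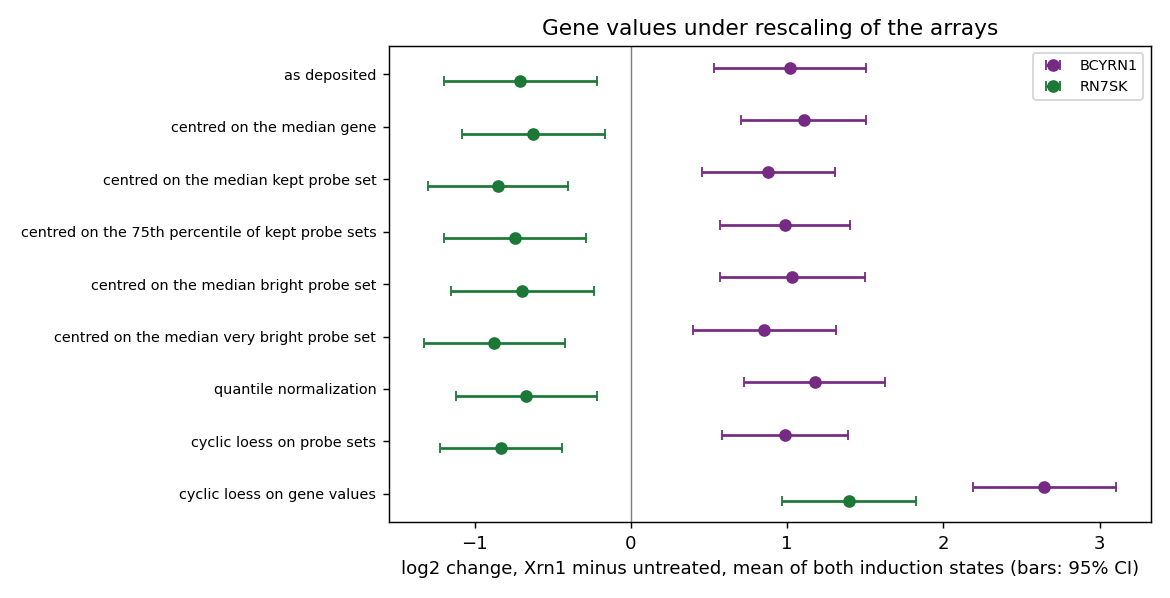
Averaged log2 change of the gene values, Xrn1 minus untreated (x axis), with the 95% confidence interval from limma, as deposited and under 8 rescalings (y axis). BCYRN1 (purple) is above 0 throughout, and RN7SK (green) is below 0 except after cyclic loess on gene values, at 1.40.

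Induction of K294A did not change either gene value past the threshold. Without Xrn1, BCYRN1 changed by -0.24 (95% confidence interval from -0.93 to 0.45; limma adjusted p = 0.641) and RN7SK by -0.26 (from -0.95 to 0.44; adjusted p = 0.623). With Xrn1, BCYRN1 changed by 0.47 (from -0.21 to 1.16; adjusted p = 0.571) and RN7SK by -1.01 (from -1.70 to -0.32; adjusted p = 0.453). The 3 induced Xrn1 values of RN7SK (9.90, 9.76 and 10.21) lay below the 3 uninduced Xrn1 values (10.45, 11.66 and 10.77). The change passed in a limma fit of those 2 groups alone (adjusted p = 0.036). The shares of all genes that were apart like this or passed in that fit are not given here. With 1 array left out of the main fit, the RN7SK change was as small as -0.66 and passed in no case. Of all genes, 0.197% passed without Xrn1 and 0.0693% with Xrn1. Of the 7 probe sets 0 passed in limma in either comparison (background 0.00595% with Xrn1 and 0% without), with an unadjusted p under 0.05 for 1, the RN7SK probe set 2910446, with Xrn1 and for 0 without. With Xrn1, 2 RN7SK probe sets were lower in every induced than in every uninduced sample (background 5.48%) and 1 of BCYRN1 was higher (background 13.1%). Without Xrn1, 2 of RN7SK were lower (background 6.76%). The interaction was 0.72 for BCYRN1 and -0.75 for RN7SK (limma adjusted p = 0.254 and 0.232). It was 0.28 for BCYRN1 and -1.18 for RN7SK with centring on the median gene, and -0.01 and -1.40 after cyclic loess on gene values, and none of these 4 passed. With array weights BCYRN1 passed (1.04). As deposited, 12.6% of genes passed, 11.5% higher and 1.06% lower. After centring on the median gene 0.768% passed, and higher genes were 30.6% of these, against 91.6% as deposited.

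Other polymerase III RNAs also went both ways as deposited. Of 31 listed, 4 were measured above the filter. On average 2 rose and 1 fell, beside 13.1% higher and 26.5% lower over all genes. With centring on the median kept probe set 1 rose and 1 fell, and after cyclic loess on gene values 3 rose and 0 fell. RN7SL1, the RNA of the signal recognition particle, had 11.17, 10.90 and 11.72 in induced Xrn1 samples, against 12.60, 12.38 and 12.53 in induced untreated samples. Uninduced cells had 11.69, 12.76 and 11.91 with Xrn1, against 12.79, 13.10 and 12.80 without. It fell by 1.01 on average (limma adjusted p = 0.000612) but turned to 1.30 after cyclic loess on gene values, as RN7SK did, and it was read on a single probe set whose neighbours lie on chromosome 9 while the gene lies on chromosome 14. Like the 2 bright RN7SK probe sets, it was lower in every Xrn1 sample than in every untreated sample of its state. Of all probe sets, 5.67% were apart in this way. In uninduced cells the separation was narrow, at 12.76 against 12.79, and the change of -0.77 did not pass (limma adjusted p = 0.0741).

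RPPH1, the RNA of ribonuclease P, rose by 2.33 on average (limma adjusted p = 1.53e-10), or by 2.16 with centring on very bright probe sets (adjusted p = 9.22e-05). It had 8.50, 8.55 and 8.32 in induced Xrn1 samples, against 4.45, 4.29 and 6.46 in induced untreated samples, and 7.69, 9.01 and 8.18 in uninduced Xrn1 samples, against 6.10, 7.81 and 7.14 in uninduced untreated samples, where the groups overlapped. Its 2 probe sets lie beside genes of its own chromosome 14. RMRP, the RNA of ribonuclease MRP, rose by 0.70 (adjusted p = 0.0338), with 8.86, 8.79 and 9.21 in induced Xrn1 samples against 7.93, 6.54 and 8.24 in induced untreated samples. In uninduced cells its groups overlapped and its change was 0.01. The averaged call of RMRP ended with centring on the median kept probe set (0.56, adjusted p = 0.11), on the 75th percentile (0.66) or on bright probe sets (0.71 and 0.53). Induced untreated replicates 1 and 2 were the lowest 2 of 12 samples for RPPH1 and for the BCYRN1 gene value, and replicate 2 was the lowest for RMRP. The part of these 2 arrays in the BCYRN1 result was not tested beyond leaving each out, which gave changes in induced cells of 1.24 and 1.21. RNU6ATAC, a minor spliceosomal RNA, was dim at 2.33 and 2.61 on its 2 probe sets and was at 0.34 (adjusted p = 0.26). Both lie beside genes of other chromosomes than its own.

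**Figure D5:**
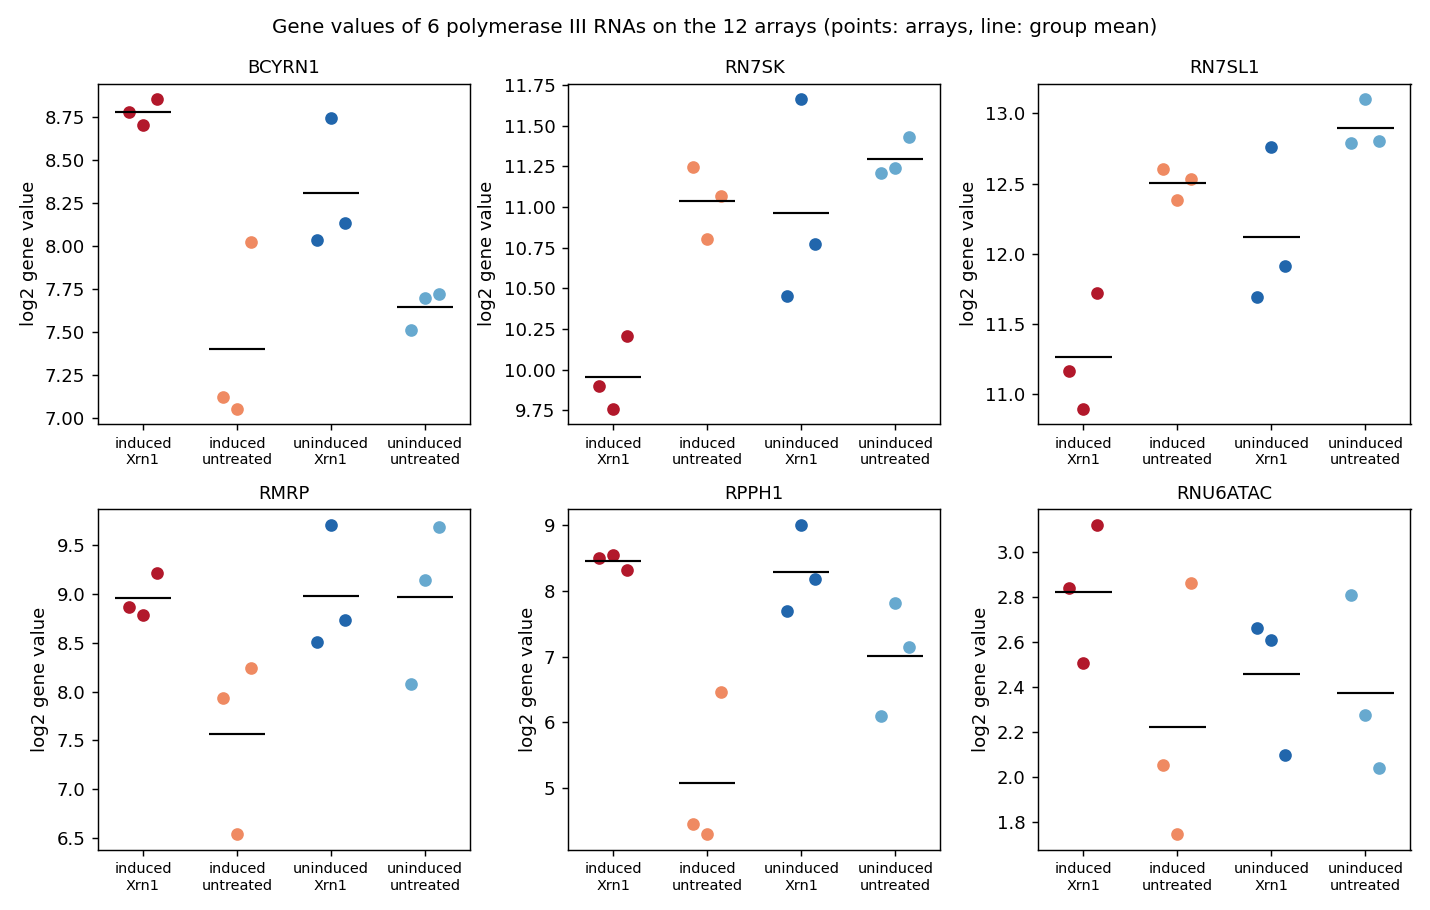
Log2 gene values (y axis, own range in each panel) of BCYRN1, RN7SK and the 4 other measured polymerase III RNAs on the 12 arrays by group (x axis), with a line for the mean of 3. RN7SK and RN7SL1 are lowest in induced Xrn1 samples, where BCYRN1 is highest, and RPPH1 is lowest in induced untreated samples.

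Capped small RNAs of polymerase II were mostly dim. Of 24 listed, 4 were measured, 1 rose and 0 fell on average, beside 13.1% higher and 26.5% lower over all genes, and their median change was 0.42. RNU2-1, the U2 spliceosomal RNA, rose by 0.80 (limma adjusted p = 0.0127), with group means of 5.97 in induced Xrn1, 4.55 in induced untreated, 5.93 in uninduced Xrn1 and 5.75 in uninduced untreated samples. This call ended with centring on very bright probe sets (0.63, adjusted p = 0.106). Its probe set has neighbours on chromosome 15 and the gene lies on chromosome 17. RNU12, RNU11 and SNORD13 did not pass on average, at 0.53, 0.31 and 0.30.

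RN7SK is mainly nuclear, so nuclear long noncoding RNAs were read beside it. Of 8 measured, 2 fell and 2 rose with Xrn1 on average, with a median of 0.35, beside 26.5% lower and 13.1% higher over all genes. MALAT1 fell by 2.30 (limma adjusted p = 1.68e-12), with group means of 3.08 in induced Xrn1, 4.99 in induced untreated, 3.04 in uninduced Xrn1 and 5.74 in uninduced untreated samples. NEAT1 fell by 0.96 (adjusted p = 0.0016), while MEG3 rose by 0.73 and CDKN2B-AS1 by 0.72. Both rises missed the threshold with centring on the median kept probe set (0.59 and 0.58) and without the filter (0.49 and 0.08). They also missed it with centring on very bright probe sets (0.57 and 0.55). CDKN2B-AS1 missed it as well with centring on the 75th percentile (0.68) or bright probe sets (0.73) and with cyclic loess on gene values (0.55). MEG3 changed by 1.385 in induced cells, where untreated replicate 2 was lowest at 1.36, and by 0.08 in uninduced cells. Mean levels of the 8 RNAs over 12 arrays were between 2.33 and 4.21. Whether nuclear RNA in the extract contributed to the RN7SK values was not tested.

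The mRNAs of proteins that bind 7SK or act in P-TEFb fell with Xrn1 for the most part. On average 16 of 21 measured fell and 0 rose, with a median of -0.98, beside 26.5% of all genes lower and a median of 0.09. The log2 change was -2.47 for CCNT1, the cyclin of P-TEFb (limma adjusted p = 4.62e-13), -2.06 for RBM7, an adaptor of nuclear RNA decay, -2.05 for HNRNPR and -1.93 for the helicase DDX21. Among proteins reported to bind BC200, all 17 measured fell, with a median of -1.06. The change was -2.33 for PCBP2, a poly(C)-binding protein (adjusted p = 1.02e-12), -2.23 for the initiation factor EIF4B, -1.85 for the poly(A)-binding protein PABPC1 and -1.63 for SRP9, which binds Alu-related RNA. SYNCRIP and HNRNPA2B1 are in both lists. Cyclic loess on gene values gave 13 lower, 1 higher and a median of -0.55 for the 7SK list, with -1.14 for HNRNPR. For the BC200 list it gave 10 lower, 1 higher and a median of -0.53, with -1.17 for PCBP2, -1.14 for EIF4B, -0.47 for PABPC1 and -0.91 for SRP9. As deposited, the fall was not particular to these lists. Of 6 mesenchymal or bone markers, 3 fell and 1 rose on average, with a median of -0.98. After cyclic loess on gene values 1 of these markers fell and 2 rose, with a median of -0.17. Over all genes that setting gave 4606 of 18763 lower and 4552 higher. Median levels were 4.02 and 4.93 in the 7SK and BC200 lists, against 3.30 over all genes. The part of level in the fall was not tested.

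Of the mRNAs of subunits and factors of polymerase III itself, 15 of 31 measured fell on average and 0 rose, beside 26.5% lower and 13.1% higher over all genes. Their median was -0.54, and 3 were higher after centring on the median gene. The change was -1.66 for SNAPC1, a subunit of the complex that starts genes of the RN7SK type (limma adjusted p = 4.45e-08), -1.63 and -1.49 for GTF3C4 and GTF3C3 of the factor TFIIIC, and -1.29 for the polymerase subunit POLR3C. These mRNAs are capped polymerase II transcripts and were measured in the same RNA as BCYRN1 and RN7SK.

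The 5 genes whose 12 values were most like those of BCYRN1, by Pearson correlation over 16414 genes, were PCSK1N (0.936), SELENOM (0.934), COMTD1 (0.924), DUX4 (0.921) and NFE2L3 (0.92). PCSK1N encodes an inhibitor of a prohormone convertase, SELENOM a selenoprotein, and DUX4 and NFE2L3 transcription factors. Their Xrn1 changes in induced cells lay between 1.22 and 1.60. For RN7SK they were H1-4 (0.843), ZNF678 (0.842), H2AC20 (0.81), H1-1 (0.78) and TMEM144 (0.777). H1-4 and H1-1 encode linker histones and H2AC20 a core histone, made from replication-dependent histone genes. Their averaged Xrn1 changes were -1.80, -1.27 and -1.43, and H1-4, with a mean level of 9.19, is among the 42 genes with a mean above 8. These likenesses were read over arrays shared by all genes and describe the 12 samples only. The genes were picked by likeness over the same arrays, so Xrn1 changes in the direction of BCYRN1 or RN7SK follow from the choice.

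As a check of the material, 6 mesenchymal or bone markers had levels between 3.47 for RUNX2 and 8.42 for COL1A1, and 15 markers of other cell types lay between 2.44 and 4.16, beside a median of 3.30 over all genes. Across genes, correlations between the arrays of a group were 0.942 to 0.959 for induced Xrn1, 0.835 to 0.888 for induced untreated, 0.711 to 0.918 for uninduced Xrn1 and 0.837 to 0.967 for uninduced untreated samples. Of 16883 genes with at least 3 probe sets, 144 to 298 were above a level of 6 in induced Xrn1 samples, 327 to 823 in induced untreated, 110 to 151 in uninduced Xrn1 and 760 to 1114 in uninduced untreated samples. No intervals for counting error apply to arrays, and 3 arrays per group limit the precision.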

How the data were processed

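The authors deposited log2 values, 1 per probe set and array. The submitters' processing notes name RMA and oligo, with no version. The values range from -0.36 to 14.08. Probe sets were named from a platform table, with 19560 symbols of which 2966 were updated through RefSeq synonyms. The members and gene lists were chosen with earlier results of these data known. Probe sets with a 12-array mean above the median probe set (2.04) were kept. A gene value is the mean of its kept probe sets. limma 3.58.1 in R 4.3.3 (lmFit, eBayes) was fitted over 4 group means, on 18763 genes and on 705699 kept probe sets, with Benjamini-Hochberg adjustment over each contrast and a threshold of 0.05. The prior SD was 0.432 for genes and 0.649 for probe sets. Permutation tests used all 400 rearrangements within induction states, two-sided and without pairing by sample number. On simulated gene values with 200 of 18763 genes changed, a log2 change of 2 was recovered for 88.5% in induced cells, 89.5% in uninduced cells and 98.5% on average, and a change of 1 for 0%, 0% and 38.5%. The simulation changed far fewer genes than the 39.6% that passed on average in the data, and drew noise independently for each array. Its shares therefore do not give the power of the tests here. Named were the members, up to 4 genes of each list with the smallest p for the averaged Xrn1 change, and the 5 genes most like each member, among genes with at least 3 kept probe sets, without provisional names and antisense loci. Alternatives were 5 centrings, quantile and cyclic loess normalisation, 2 filters, 2 priors, array weights, subsets of arrays, replicate blocks, the median of probe sets and at least 3 kept probe sets. Of these, centring on probe sets above 8 and above 11, cyclic loess on probe sets for gene values, and use of the own-chromosome probe set alone were added after the values were seen. CM1X and CM2X both have replicate number 2 in their titles, and CM1X was numbered 1 by sample order.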

Additional observations from a re-analysis of the deposited data

Results flagged for a closer look

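The Xrn1 change differed between induced and uninduced cells, by limma's interaction term, for 5 genes named beside BCYRN1 and RN7SK. It was larger in induced cells by 2.11 for RPPH1, whose induced untreated replicates 1 and 2 were its lowest values. For RNU12 it was higher by 2.20 and had opposite signs, at 1.625 in induced and -0.57 in uninduced cells. The dim probe set of RNU12 lies beside genes of another chromosome than its own. The Xrn1 change was less negative in induced cells by 1.48 for CCNT1, by 1.65 for GTF3C4 and by 1.71 for the cell surface glycoprotein CD44. Of all genes, 11.5% passed in this direction and 1.06% in the other, so a gene that passes as higher is not unusual here. The interaction passed as higher for 1 of 4 polymerase III RNAs, 1 of 4 capped small RNAs and 1 of 21 7SK proteins. The same held for 5 of 31 polymerase III factors and 1 of 6 mesenchymal or bone markers. Among BC200 proteins 0 of 17 passed, and among nuclear noncoding RNAs 0 of 8. BCYRN1 and RN7SK did not pass. With centring on the median gene the 5 interactions kept their direction at 1.68, 1.77, 1.04, 1.21 and 1.28 in that order, and 0 of 5 passed (limma adjusted p between 0.0612 and 0.101).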

How the results depend on the processing

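For the gene values of BCYRN1 and RN7SK in 6 contrasts, 215 of 232 recomputed values and 138 of 144 values with 1 array left out kept their direction and side of the threshold (or changed sign without passing, 5 and 0 values). Cyclic loess on gene values turned RN7SK to 0.70 in induced cells, 2.09 in uninduced cells and 1.40 on average. The RN7SK call in induced cells ended with its own spread (-1.08) and with the median of probe sets (-0.98), and the averaged call with the chromosome 6 probe set alone (-0.36), which in turn passed for the interaction (-1.68). In uninduced cells BCYRN1 passed after centring on the median gene (0.96) or on the 75th percentile (0.79), quantile normalisation (0.90), cyclic loess on gene values (2.65) and array weights (0.51). Array weights also gave calls for RN7SK in uninduced cells (-0.55), for induction with Xrn1 (0.64 for BCYRN1 and -0.79 for RN7SK) and for the interaction of BCYRN1 (1.04). These weights were uneven. Uninduced Xrn1 replicate 3 had 9.32, against 0.84 and 0.36 for replicates 1 and 2 of its group, so uninduced Xrn1 means rested mostly on that array. Untreated samples had weights from 0.17 to 1.62. The fit of only the groups compared gave a call for RN7SK and induction with Xrn1 (-1.01). The cause of these differences was not tested. With 1 array left out, the Xrn1 change in induced cells ranged from 1.21 to 1.69 for BCYRN1 and from -1.21 to -0.98 for RN7SK, in uninduced cells from 0.44 to 0.80 and from -0.68 to -0.08, and on average from 0.91 to 1.18 and from -0.88 to -0.58. For induction with Xrn1 the ranges were 0.34 to 0.69 and -1.26 to -0.66, without Xrn1 -0.55 to -0.07 and -0.36 to -0.14, and for the interaction 0.54 to 1.03 and -1.01 to -0.40; the interaction of BCYRN1 passed without induced untreated replicate 3 (1.03). Without CM5 and CM5X the averaged changes were 0.92 and -0.90. Both fits with a replicate block, by replicate number or by sample numbers CM1 to CM6, changed no call of the gene values. Their averaged changes (1.02 and -0.71) could not differ from the main fit, because every block holds the compared groups equally. Deviations from the group means correlated between -0.71 and 0.13 in the 6 pairs with the same sample number, over 0.1 in 1. With 3 arrays per group, normalised to each other, this cannot show whether the samples were paired. For single probe sets, 527 of 560 recomputed values and 479 of 504 with 1 array left out stayed as they were, and 0 called values were turned. Among the lists, cyclic loess on gene values gave 0 lower for polymerase III RNAs, 1 higher for nuclear noncoding RNAs, 1 higher for 7SK proteins, 1 higher and 10 lower for BC200 proteins and 4 higher for polymerase III factors. Centring on the median gene gave 1 higher for 7SK proteins and 3 for polymerase III factors. No filter gave 0 higher for nuclear noncoding RNAs and 1 for polymerase III factors, and at least 3 kept probe sets 1 and 1. Over all genes the averaged Xrn1 calls were 2455 higher and 4968 lower, and 4908 and 4965 after centring on the median gene. The interaction had 2360 calls, and 44 higher and 100 lower after that centring.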
